A study of Mus musculus with 4 samples.

Results

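The genes described here are the ligands and receptors of the tumour necrosis factor (TNF) superfamily. They were taken by name from the pair of deposited gene tables: every symbol that starts with Tnfsf or Tnfrsf and a digit, together with Tnf, Lta, Ltb, Ltbr, Fas, Fasl, Cd27, Cd40, Cd40lg, Cd70, Eda2r and Ngfr. Of the 15881 genes in either table, 40 met this rule and stood in both tables, 15 of them ligands and 25 receptors. Cd40lg was in neither table. The cells were bone marrow-derived dendritic cells (BMDCs) of C57BL/6 mice aged 8 weeks, either wild type (WT) or GOLPH2 knockout (KO). Golm1 is the gene symbol of GOLPH2, a membrane protein of the Golgi apparatus. Each genotype was taken unstimulated or after IFN-gamma for 16 h followed by LPS for 4 h, called stimulated below. There were 4 groups of 1 RNA-seq library each, so no difference has a replicate check, and every test compares 2 libraries rather than the conditions. The labels do not give the knockout's construction or the number of mice or cultures behind a library.

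TNF superfamily ligands are mostly trimeric proteins anchored in the cell membrane, from which some are cut off as soluble cytokines. Their receptors act through TRAF adaptors, which lead to NF-kB and MAP kinases, or, in the receptors with a death domain, through FADD and caspases to cell death. Dendritic cells use the family to exchange signals with T cells: CD40 on the dendritic cell receives T cell help, while OX40 ligand, CD70 and the CD137 ligand are costimuli for T cells.

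The unstimulated table compared a KO library of 39600000 reads with a WT library of 34600000 (totals recovered from the values and rounded). For the stimulated cells a KO library of 36800000 reads was compared with a WT library of 37700000. Differences are log2 ratios of KO over WT after scaling to these library totals, with the standard error (SE) that read counting alone gives. Spread between cultures is in none of the SEs and intervals. A gene was called different at a Benjamini-Hochberg adjusted p under 0.001 for the deposited two-sided test over all genes of its table. The adjusted p-values printed beside single genes are from an exact binomial test of the reads, adjusted in the same way; it lost 1 of the members' calls, that of Tnfrsf18. Golm1, the targeted gene, was at 23.5% of the WT level in the unstimulated KO library and at 25% in the stimulated one, where it had 190 reads against 779. Of 14 dendritic cell markers 13 were listed (Cd209a was not). The 12 with reads in both tables summed to 7123 RPM (reads scaled to a library total of 1000000) in WT and 7343 in KO cells before stimulation and to 7849 and 8201 after it, of which Cd74 alone made up 3269 to 3494. Itgax (log2 ratios of 0.32 and 0.29, called higher in both states) is not in these sums, because its reads before stimulation could not be recovered. Of the 13, 7 were called higher and 1 (Sirpa) lower in KO cells in each state. Over all genes 4.7% were called higher and 4.27% lower before stimulation, and 5.36% and 6.54% after it. Called higher in both states were, among others, Batf3 with log2 ratios of 0.51 and 0.57 and Irf8 with 0.32 and 0.24. Some of these calls were small differences in genes with many reads, such as Cd74 (0.04 and 0.08) and H2-Ab1 (0.09 and 0.09). Of 12 macrophage and monocyte markers 11 were listed (Adgre1 was not). In KO cells 6 of these were called higher and 2 lower before stimulation and 5 and 2 after it, Fcgr1 being higher (0.66 and 0.27) and Cd14 lower (-0.51 and -0.27). The 9 with reads in both tables summed to 1067 RPM in WT and 1044 in KO cells before and to 867 and 882 after stimulation. Left out of these sums were the markers Cd14 and Lyz2 (the latter called higher, 0.15 and 0.16), whose reads could not be recovered. The part of such cells in the differences described here was not tested.

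The promoters of 4 members are shown first, because 3 of these genes (Lta, Tnfsf10 and Tnfrsf14) had called differences of at least 1.5-fold and Tnf is the neighbour of Lta on chromosome 17. Each run covers 250 bases before and 50 bases after the start annotated in RefSeq on GRCm38.p6, 5′ to 3′ on the gene's own strand. Capitals mark matches, on either strand, to the letters GAAANNGAA (the core of an interferon-stimulated response element), TTCNNNGAA (a gamma-activated sequence, bound by STAT dimers) or GGGNNNTTC (part of a kappa B element, bound by NF-kB). The 4 windows are chr17:35205302-35205601 on the minus strand for Lta, chr17:35201958-35202257 on the minus strand for Tnf, chr3:27316827-27317126 on the plus strand for Tnfsf10 and chr4:154928028-154928327 on the minus strand for Tnfrsf14.
Lta: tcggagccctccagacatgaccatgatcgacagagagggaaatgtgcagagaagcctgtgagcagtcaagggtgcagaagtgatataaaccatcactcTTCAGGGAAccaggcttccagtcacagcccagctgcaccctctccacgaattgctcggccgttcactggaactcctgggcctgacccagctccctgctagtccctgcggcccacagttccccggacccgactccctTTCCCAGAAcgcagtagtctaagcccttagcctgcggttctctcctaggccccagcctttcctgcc
Tnf: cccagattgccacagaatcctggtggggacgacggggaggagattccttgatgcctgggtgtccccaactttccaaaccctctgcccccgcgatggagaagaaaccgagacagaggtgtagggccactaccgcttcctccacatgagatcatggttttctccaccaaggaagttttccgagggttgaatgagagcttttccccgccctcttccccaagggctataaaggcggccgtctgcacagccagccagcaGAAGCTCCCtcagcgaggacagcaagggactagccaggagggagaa
Tnfsf10: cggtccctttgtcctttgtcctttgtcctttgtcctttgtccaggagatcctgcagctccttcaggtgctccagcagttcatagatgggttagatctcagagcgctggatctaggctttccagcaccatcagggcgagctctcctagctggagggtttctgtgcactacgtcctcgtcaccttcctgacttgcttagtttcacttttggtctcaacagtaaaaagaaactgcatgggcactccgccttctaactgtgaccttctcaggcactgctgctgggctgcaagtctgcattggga
Tnfrsf14: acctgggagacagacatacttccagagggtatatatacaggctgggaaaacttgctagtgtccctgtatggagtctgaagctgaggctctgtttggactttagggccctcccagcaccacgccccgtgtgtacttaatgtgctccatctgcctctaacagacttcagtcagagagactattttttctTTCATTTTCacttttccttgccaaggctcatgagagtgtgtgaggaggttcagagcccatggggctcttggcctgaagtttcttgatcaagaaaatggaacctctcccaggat
The Lta window held TTCNNNGAA from positions -152 and -16 relative to the RefSeq start. The Tnf window held the reverse complement of GGGNNNTTC from position 5, and the Tnfrsf14 window that of GAAANNGAA from position -63. In the GENCODE annotation Tnfrsf14 spans chr4:154921933-154928563, so its whole window lies inside the gene. The Tnfrsf14 match is thus not upstream of the gene as GENCODE bounds it. The Tnfsf10 window held none of the 3 letter patterns. RefSeq windows were found for 31 of the 40 members, 35 promoters in all. GAAANNGAA stood in 5 of these 35 (14.3%) against 8.56% of 32851 promoters of the same length. TTCNNNGAA stood in 9 (25.7%) against 8.3%, and GGGNNNTTC in 6 (17.1%) against 14%. The patterns were searched separately and a base can belong to more than 1 of them. A match describes letters and not a bound site.

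The called differences of at least 1.5-fold lay in 2 ligands, Tnfsf10 and Lta, and 2 receptors, Tnfrsf14 and Ngfr. In unstimulated cells 24 of 40 members (60%) were within 1.2-fold of equality, against 74% of all genes, and in stimulated cells 25 (62.5%), against 71.6%. The median log2 ratio of the members was -0.06 before and 0.00 after stimulation, against 0.001 and 0.005 for all genes. Before stimulation 5 members were called higher in KO cells (12.5%, against 4.7% of all genes): Lta, Tnfrsf9, Tnfrsf18, Tnfrsf13b and Eda2r. Another 3 were called lower (7.5%, against 4.27%): Tnfsf4, Tnfrsf1b and Tnfrsf23. On the deposited ratios, which are not scaled to the library totals, Tnfrsf23 turns to 0.02 and the split becomes 6 higher and 2 lower. After stimulation 5 were called higher (12.5%, against 5.36%): Lta, Tnfrsf9, Tnfrsf26, Eda2r and Ngfr. The 7 called lower (17.5%, against 6.54%) were Tnfsf10, Tnfsf4, Tnfsf15, Tnfrsf14, Cd40, Tnfrsf8 and Tnfrsf1b. Lta, Tnfrsf9 and Eda2r were called higher in both states (3 members, 7.5%, against 2.96%), and Tnfsf4 and Tnfrsf1b lower in both (2 members, 5%, against 2.23%). No member was called in opposite directions. With a difference of at least 1.5-fold also required, 1 member was called higher before stimulation (Lta, against 0.409% of all genes) and 0 lower (against 0.299%). After stimulation 2 were called higher by that rule (Lta and Ngfr, against 0.425%) and 2 lower (Tnfsf10 and Tnfrsf14, against 0.594%). These 4 are also the members marked as differentially expressed in the authors' deposited table, Lta in the unstimulated table and Tnfsf10, Tnfrsf14 and Ngfr in the stimulated one.

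**Figure D1:**
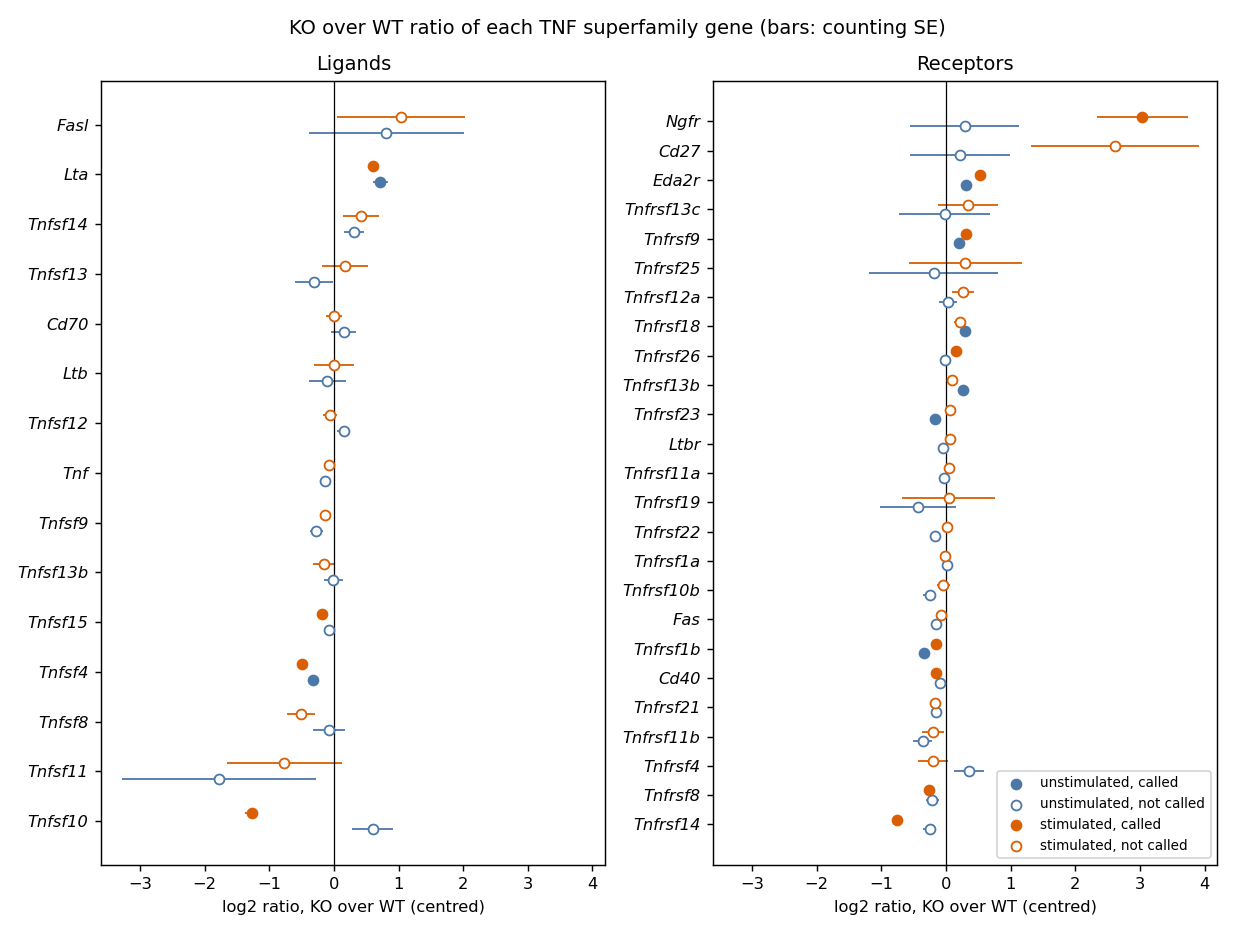
Log2 ratio of KO over WT (x axis, centred on the library totals) for the 15 ligands and 25 receptors (y axis), in unstimulated (blue) and stimulated (orange) cells. Points are 1 library against 1 library, bars are the counting SE, and filled points were called; Tnfsf10 at -1.27 and Ngfr at 3.04 are the called points farthest from 0, both in stimulated cells.

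Among the ligands, Tnfsf10 encodes TRAIL, which triggers apoptosis through receptors with a death domain. The gene lies at chr3:27317028-27342427. It had 30 reads in WT and 52 in KO cells before stimulation, and 604 in WT and 244 in KO cells after it. The stimulated WT library was thus high, the stimulated KO library intermediate and both unstimulated libraries low. In the same order the 4 levels were 0.866, 1.31, 16.0 and 6.63 RPM. In stimulated cells Tnfsf10 was at 0.414 of the WT level in KO cells (95% exact binomial interval 0.355 to 0.481, log2 ratio -1.27 ± 0.10, exact adjusted p = 2.7e-32). Before stimulation the ratio was 1.52 (0.951 to 2.46) and was not called (exact adjusted p = 0.28). In bulk RNA fewer cells of a type and less RNA per cell cannot be told apart. Its receptor genes Tnfrsf10b and Tnfrsf11b had negative log2 ratios in both states. Tnfrsf10b, the mouse TRAIL receptor with a death domain, had 420 reads in stimulated WT and 398 in stimulated KO cells, a log2 ratio of -0.04 ± 0.10. Tnfrsf11b, which encodes the secreted decoy osteoprotegerin, had 163 and 138 reads, a log2 ratio of -0.20 ± 0.17. Before stimulation the log2 ratios were -0.25 ± 0.10 for Tnfrsf10b and -0.36 ± 0.15 for Tnfrsf11b. Neither gene was called in either state.

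The decoy TRAIL receptor genes Tnfrsf22 and Tnfrsf23 and their paralog Tnfrsf26 lie next to each other on chromosome 7, and no source used here says how reads shared between them were counted. Tnfrsf23 had 5872 WT and 5957 KO reads before stimulation, a log2 ratio of -0.17 ± 0.026 that was called, and 4285 and 4394 reads after it, a ratio of 0.07 ± 0.031 that was not. Tnfrsf26 had 6196 and 7049 reads before (-0.01 ± 0.025, not called) and 4880 and 5330 after stimulation (0.16 ± 0.029, exact adjusted p = 1.9e-07). Tnfrsf22 had -0.17 ± 0.059 before and 0.01 ± 0.068 after, neither called. On ratios scaled to the library totals the log2 ratio of these 3 genes was larger after stimulation than before it, by 0.17 to 0.24, with no test of that change. On the deposited ratios, which are not scaled, the change was -0.05 for Tnfrsf22, 0.02 for Tnfrsf23 and -0.06 for Tnfrsf26.

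Lta encodes lymphotoxin alpha, a secreted ligand of the TNF receptors that also forms a membrane complex with lymphotoxin beta. It had 249 reads in WT and 469 in KO cells before stimulation, and 552 and 822 after it. The KO library was the higher one in both states. The fold was 1.65 (95% exact binomial interval 1.41 to 1.93, exact adjusted p = 2.5e-09) before and 1.53 (1.37 to 1.70, exact adjusted p = 2.7e-13) after stimulation. The genes beside it on chromosome 17 were not called. Tnf, the founding cytokine of the family, had 1915 WT and 1978 KO reads before stimulation (log2 ratio -0.14 ± 0.046, exact adjusted p = 0.015) and 9510 and 8836 after it (-0.07 ± 0.021, exact adjusted p = 0.0069). Ltb, the membrane anchor of the lymphotoxin heterotrimer, had 43 to 50 reads in each library, with log2 ratios of -0.10 ± 0.29 and 0.00 ± 0.31. Ltbr, the lymphotoxin beta receptor, had 2755 to 3137 reads and log2 ratios of -0.05 ± 0.037 and 0.06 ± 0.039, not called.

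Lta and Fasl are best known from lymphocytes. Of 16 markers of T cells, NK cells and B cells, 15 were listed (Ncr1 was not), all 15 with at least 1 read in each library. Their summed level was 17.2 RPM in WT and 23.5 in KO cells before stimulation, and 14.3 and 20.4 after it. Of this, Gzma gave 3.35 and 6.09 RPM before and 2.68 and 4.24 after stimulation. Gzmb gave 4.24 and 5.56 before and 4.00 and 6.42 after. Other markers were not higher in KO cells, such as Lck with 2.51 and 2.22 RPM before and 2.52 and 2.37 after stimulation. Gzma was called higher in unstimulated cells (116 WT and 241 KO reads) and Gzmb in stimulated cells (151 and 236), and none was called lower. Over all genes 4.7% were called higher before and 5.36% after stimulation. The T cell receptor component Cd3e had 10 and 15 reads before and 9 and 9 after stimulation, and the B cell receptor component Cd79a 27 and 64 before and 16 and 40 after. The part of these cells in the Lta difference was not tested. Fasl, the ligand of the death receptor Fas, had 2 to 6 reads per library and no call.

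Tnfsf4 encodes OX40 ligand, a T cell costimulus. It had 1315 WT and 1194 KO reads before stimulation and 1547 and 1065 after it, the smaller library total being that of WT before and of KO after. Both KO libraries were below both WT libraries, at 30.2 and 29.0 RPM against 38.0 and 41.0. The log2 ratio was -0.33 ± 0.058 (exact adjusted p = 2.3e-07) before and -0.50 ± 0.057 (exact adjusted p = 4.4e-17) after stimulation. Its receptor gene Tnfrsf4, OX40, had 66 to 97 reads in each library and was not called, at 0.36 ± 0.23 and -0.20 ± 0.23.

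Tnfsf15 encodes TL1A, the ligand of the death domain receptor Tnfrsf25. It had 2472 WT and 2697 KO reads before stimulation, a log2 ratio of -0.07 ± 0.040 that was not called. After stimulation it had 5779 and 4956 reads, a ratio of -0.19 ± 0.028 (exact adjusted p = 6.3e-10), or 0.879 of the WT level. Tnfrsf25 itself had 4 to 6 reads per library.

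The remaining 8 ligands were not called in either state. For Tnfsf9, the CD137 ligand, the log2 ratios were -0.27 ± 0.098 and -0.14 ± 0.067. For Tnfsf8, the CD30 ligand, they were -0.08 ± 0.25 and -0.51 ± 0.22, with 65 to 102 reads. Cd70, the ligand of CD27, had 0.15 ± 0.19 and 0.00 ± 0.12. Tnfsf14, which encodes LIGHT, had 0.31 ± 0.15 and 0.42 ± 0.28. Tnfsf13b, the B cell survival factor BAFF, had -0.01 ± 0.15 and -0.16 ± 0.16. Tnfsf12 (TWEAK) had 0.15 ± 0.097 and -0.06 ± 0.11, and Tnfsf13 (APRIL) -0.31 ± 0.29 and 0.17 ± 0.36. Both share exons with the readthrough gene Tnfsfm13, so their reads are uncertain. Tnfsf11 (RANKL) had 1 to 7 reads per library.

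**Figure D2:**
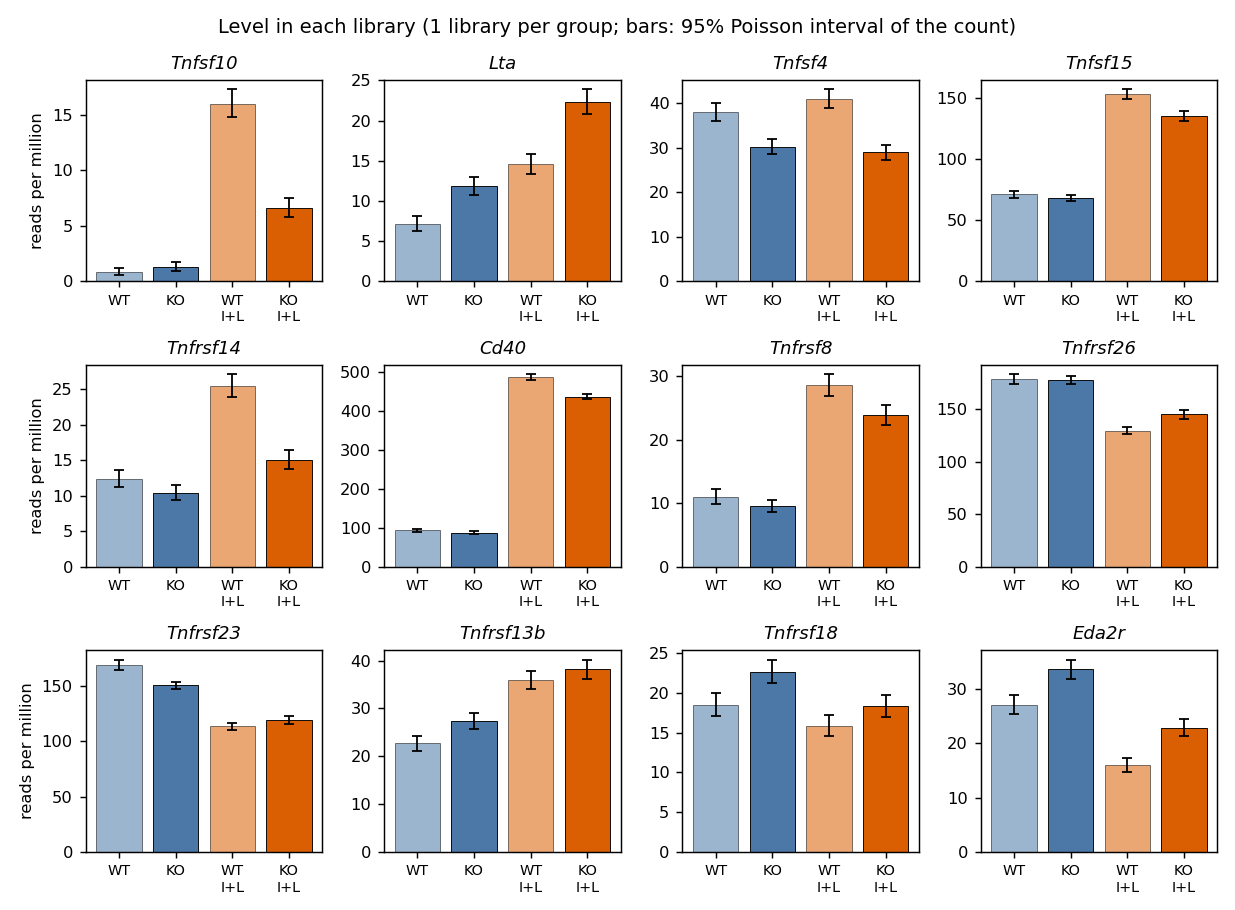
RPM (y axis, starting at 0) of 12 members in the 4 libraries (x axis; I+L, IFN-gamma then LPS), with 1 library per bar and 95% Poisson intervals of the count as error bars. Tnfsf10 stands at 16.0 in the stimulated WT and 6.63 in the stimulated KO library, and Lta is higher in the KO library of both states.

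Among the receptors, Tnfrsf14 encodes HVEM, which binds LIGHT, lymphotoxin alpha and the inhibitory receptor BTLA. The gene lies at chr4:154921933-154928563. It had 429 WT and 413 KO reads before stimulation, and 960 and 554 after it. The stimulated WT library was above the other 3. In stimulated cells the KO level was 0.592 of WT (95% exact binomial interval 0.532 to 0.658, log2 ratio -0.76 ± 0.076, exact adjusted p = 6.9e-22). Before stimulation the ratio was -0.25 ± 0.099 and was not called (exact adjusted p = 0.076).

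Cd40 had 3235 WT and 3465 KO reads before stimulation and 18374 and 16047 after it. The stimulated KO library was below the stimulated WT library and far above both unstimulated ones. The log2 ratio in stimulated cells, -0.16 ± 0.016 (exact adjusted p = 6.4e-23), was called and amounted to 0.895 of the WT level. The ratio before stimulation was -0.09 ± 0.035 (exact adjusted p = 0.054). Tnfrsf8, the CD30 receptor, had 1078 WT and 879 KO reads after stimulation (-0.26 ± 0.065, exact adjusted p = 7.5e-04) and 382 and 377 before it (-0.21 ± 0.10, not called).

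Of the receptors for TNF itself, Tnfrsf1b was called and Tnfrsf1a was not. Tnfrsf1a, which carries a death domain and is found on most cells, had 5298 WT and 6153 KO reads before and 5389 and 5211 after stimulation. Its log2 ratios were 0.02 ± 0.027 and -0.01 ± 0.028, not called. Tnfrsf1b, the receptor without a death domain that is found on immune cells, was called lower in both states, at -0.34 (SE at most 0.016) before and -0.15 ± 0.0061 after stimulation. After stimulation it had 118971 WT and 104562 KO reads. Its p in the unstimulated table, and that of Tnfrsf9 in both tables, stood at the highest value the table holds. Read counts could not be recovered there and only their lower limits are known.

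Tnfrsf9, Tnfrsf18 and Tnfrsf13b were called higher in KO cells in at least 1 state. Tnfrsf9 encodes CD137, a costimulatory receptor, and its log2 ratio was 0.20 (SE at most 0.0095) before and 0.31 (SE at most 0.012) after stimulation. Tnfrsf18, which encodes GITR, had 642 WT and 898 KO reads before stimulation (0.29 ± 0.074) and 599 and 674 after it (0.21 ± 0.081, not called). Its call before stimulation was at the edge, with an adjusted p of 8.5e-04 for the deposited test and of 0.001, no longer under the threshold, for the exact binomial test. Tnfrsf13b, the BAFF and APRIL receptor TACI, had 785 and 1079 reads before stimulation (0.27 ± 0.067, exact adjusted p = 9.1e-04) and 1352 and 1404 after it (0.09 ± 0.055, not called).

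Eda2r encodes a receptor for ectodysplasin. It had 938 WT and 1332 KO reads before stimulation and 602 and 843 after it, so that the KO library was higher in both states. The log2 ratio was 0.31 ± 0.061 (exact adjusted p = 5.4e-06) before and 0.52 ± 0.076 (exact adjusted p = 2.3e-10) after stimulation.

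Ngfr encodes the low-affinity neurotrophin receptor, best known from nerve and stromal cells. It had 5 WT and 7 KO reads before stimulation, and 3 and 24 after it. The fold of 8.20 in stimulated cells was called (exact adjusted p = 3.5e-04), with a 95% exact binomial interval of 2.49 to 42.6 that reflects the few reads. Some markers of stromal cells and fibroblasts were higher in KO cells too, and others were not. Of these 12 genes 5 were called higher and 0 lower in unstimulated KO cells (against 4.7% and 4.27% of all genes). In stimulated KO cells 7 were called higher and 1 (Pdgfrb) lower (against 5.36% and 6.54%). Dcn, Lum, Pdgfra and Postn were called in neither state. The summed level of the 12 was 80.1 RPM in WT and 115 in KO cells before stimulation and 86.9 and 158 after it. Thy1 alone gave 55.2 and 73.0 RPM before and 51.5 and 68.6 after stimulation. None of the 12 was at 0 in any library. The largest differences in stimulated cells included the collagen genes Col3a1, with 3 WT and 226 KO reads, and Col1a1, with 33 and 367. The part of such cells in the Ngfr difference was not tested.

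Of the receptors not called in either state, Fas, the death receptor bound by Fas ligand, had log2 ratios of -0.15 ± 0.056 and -0.08 ± 0.055. Tnfrsf21, a receptor with a death domain, had -0.16 ± 0.050 and -0.17 ± 0.050, with exact adjusted p of 0.0096 and 0.0040. Tnfrsf11a, which encodes RANK, had -0.03 ± 0.054 and 0.05 ± 0.047. Tnfrsf12a, the TWEAK receptor, had 0.03 ± 0.14 and 0.27 ± 0.17. Cd27, Tnfrsf13c, Tnfrsf19 and Tnfrsf25 had at most 21 reads in a library, and their counting SEs were 0.47 or larger. For Cd27, the receptor of CD70, the interval of the fold ran from 0.746 to 283 in stimulated cells, where it had 1 WT and 6 KO reads.

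Levels were compared between genes as RPKM, which is the RPM divided by the summed exon length in kilobases. In unstimulated WT cells Tnfrsf9 stood at 422 or more and Tnfrsf1b at 133 or more, followed by Tnfrsf1a (59.0), Tnfrsf26 (55.6), Tnfrsf23 (42.8), Ltbr (35.0), Tnf (33.7) and Cd40 (27.4). In stimulated WT cells Tnfrsf1b was at 826 and Tnfrsf9 at 259 or more, followed by Tnf (154), Cd40 (143), Tnfrsf1a (55.2) and Tnfsf15 (45.8). Because the values given as "or more" are lower limits, the order of Tnfrsf9 and Tnfrsf1b is not known in either state. In stimulated KO cells Tnfrsf1b was at 745, Tnf at 147 and Cd40 at 128. Tnfsf10 was far below these, at 3.04 RPKM in stimulated WT and 1.26 in stimulated KO cells. Lta was at 10.6 and 16.2.

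The response to IFN-gamma and LPS within each genotype was set against the median gene, which stood at a log2 value of -0.15 on the library totals in both genotypes. It was read for the 31 members whose reads were recovered in all 4 libraries with a mean of 25 or more, it has no test, and a change of 2-fold was used as a rule of size. Tnfrsf1b and Tnfrsf9, which had many reads, fell outside this rule because their reads could not be recovered in every library. Their responses are therefore not known. In WT cells 9 of the 31 were 2-fold or more higher after stimulation (29%, against 3.88% of 11903 genes), 6 of 13 ligands and 3 of 18 receptors. They were Tnfsf10, Tnf, Cd70, Tnfsf15, Tnfsf9, Lta, Cd40, Tnfrsf8 and Tnfrsf14. In KO cells 8 were (25.8%, against 3.18%), the same genes without Tnfrsf14. With scaling to the library totals in place of the median gene the KO count was 6, without Lta and Tnfsf15. Tnfsf14 was the 1 member 2-fold or more lower, in WT cells (3.23%, against 1.23%) as in KO cells (3.23%, against 1.19%). Its log2 response was -1.64 ± 0.24 in WT and -1.52 ± 0.21 in KO cells.

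Cd40 was 5.80-fold higher after stimulation in WT and 5.53-fold in KO cells, and Tnf 5.07-fold and 5.34-fold. For both genes the responses of the genotypes lay close together. Tnfsf10 was 20.6-fold higher after stimulation in WT and 5.60-fold in KO cells. The KO over WT log2 ratio of Tnfsf10 was 1.87 ± 0.34 lower after stimulation than before it (1 SE, counting error only), and the WT level before stimulation rests on 30 reads. Tnfrsf14 was 2.28-fold higher in WT and 1.60-fold in KO cells. For Lta the folds were 2.26 and 2.09, and for Tnfsf4 the log2 responses were 0.26 ± 0.054 and 0.09 ± 0.061. Cd70, Tnfrsf8, Tnfsf15 and Tnfsf9 were 2.93-, 2.88-, 2.39- and 2.30-fold higher in WT and 2.64-, 2.78-, 2.19- and 2.51-fold in KO cells.

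**Figure D3:**
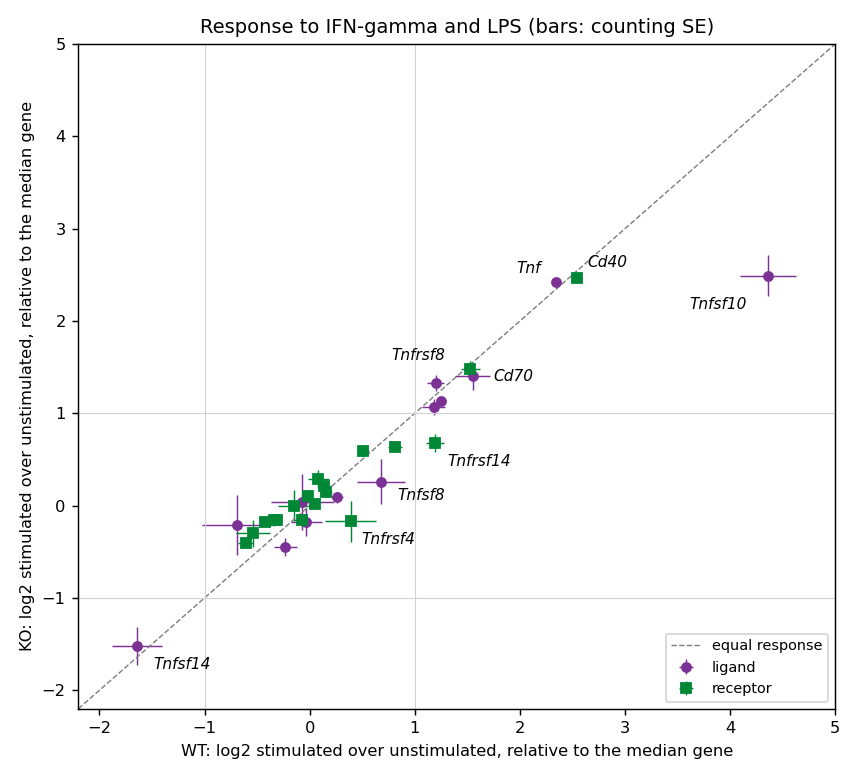
Log2 of stimulated over unstimulated levels relative to the median gene in WT (x axis) and KO cells (y axis) for the 31 measured members, ligands as circles and receptors as squares, with counting SEs as bars, grey lines at 2-fold and a dashed line of equal response. Tnfsf10, at 4.36 in WT and 2.49 in KO cells, lies farthest below the dashed line, and Tnf and Cd40 lie close to it.

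The genes that carry the receptors' signals showed small differences, with more calls lower than higher in KO cells on ratios scaled to the library totals. Of 46 signalling genes (adaptors, ubiquitin ligases, kinases, caspases and NF-kB subunits), 3 were called higher and 13 lower before stimulation, and 1 higher and 10 lower after it. Over all genes the shares called higher and lower were 4.7% and 4.27% before and 5.36% and 6.54% after stimulation. These shares, and those for both states given below, are not matched for read depth. The median counting SE over all genes was 0.088 before and 0.092 after stimulation. Some of the signalling calls were small differences in genes with many reads, such as Nfkb2 before stimulation (-0.07 ± 0.018) and Birc3 after it (-0.10 ± 0.024). Of 10 genes for shedding of the ligands and for control of their RNA or secretion, 1 was called higher and 1 lower before, and 2 higher and 2 lower after stimulation. None of the 56 genes was called at 1.5-fold in either state. The median log2 ratio of the signalling genes was -0.02 before and -0.07 after stimulation, against 0.001 and 0.005 for all genes. On the deposited ratios, not scaled to the library totals, the split of the 56 genes before stimulation turns from 4 higher and 14 lower to 14 higher and 4 lower. The unstimulated KO library had more reads than the WT library, and the deposited p is itself measured around the ratio of the totals. Centred on the median gene the split stayed at 4 higher and 14 lower.

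Called lower in both states were 7 of the 56, against 2.23% of all genes: Tnfaip3, Tnip1, Nfkbie, Birc3, Traf3, Cflar and Adam17. Tnfaip3 encodes A20, a feedback inhibitor of NF-kB, and had 10313 WT and 9385 KO reads before and 24497 and 18607 after stimulation. Its log2 ratios were -0.33 ± 0.021 and -0.36 ± 0.014. Adam17, the protease that sheds TNF from the membrane, had -0.33 ± 0.028 and -0.22 ± 0.027. Traf3, an adaptor of CD40 and a brake on the non-canonical NF-kB pathway, had -0.20 ± 0.035 and -0.34 ± 0.032. Called higher in both were 2 of the 56, against 2.96% of all genes: Nfkb1, which encodes the p105 precursor of an NF-kB subunit (0.21 ± 0.014 and 0.20 ± 0.013), and Furin, a proprotein convertase (0.20 ± 0.017 and 0.12 ± 0.013). In stimulated cells Map3k5, the kinase ASK1, had the largest called difference of the 56, at -0.55 ± 0.10 with 496 WT and 331 KO reads. Daxx, a partner of Fas, and Rel, an NF-kB subunit, were called lower after stimulation (-0.38 ± 0.036 and -0.34 ± 0.035) and not before it (0.13 ± 0.048 and -0.06 ± 0.034).

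**Figure D4:**
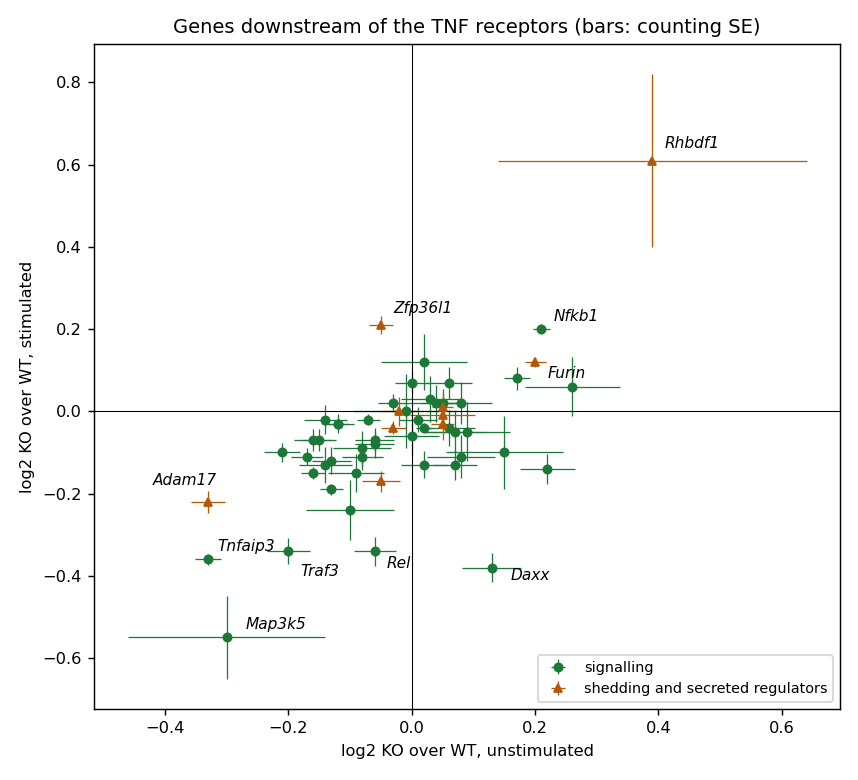
Log2 ratio of KO over WT in unstimulated (x axis) and stimulated cells (y axis) for the 46 signalling genes (circles) and the 10 genes for shedding and control of the ligands (triangles), with counting SEs as bars and centred on the library totals. Tnfaip3 (-0.33, -0.36), Traf3 and Adam17 lie low on both axes, Nfkb1 (0.21, 0.20) lies high on both, and Rhbdf1 (0.39, 0.61) was not called.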

How the data were processed

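RNA was sequenced from 4 libraries of a strand-specific mRNA kit, per the labels' protocols. HTSeq 0.6.0, FastQC 0.10.1 and the build mm10 are named in the submitters' processing notes; no source used here names the aligner, gene annotation, strand setting or test. The authors deposited 1 table per state with a log2 ratio and a −log10 p-value per gene, per the file headers. From the values, the deposited log2 ratio equals that of unscaled whole read counts (0 entered as 0.5), and the deposited −log10 p a two-sided normal test around the ratio of library totals. Read counts and totals were therefore recovered from both columns, for 99.99% and 99.97% of the genes below the highest p (tolerance 0.05 reads); 51 and 50 genes at it give lower limits. Log2 ratios were centred on the totals' ratio (0.191 and -0.036). Calls used Benjamini-Hochberg adjusted p under 0.001 over 15394 and 15310 genes. Intervals are 95% exact binomial or Poisson, for counting error only. RPKM used GENCODE exon lengths on GRCm38. Stimulation responses and the exact binomial test were added after seeing the data.

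The members and lists were chosen with earlier results of these data known. By rule, members called in either state, Tnfsf10, Lta, Tnfsf4, Cd40 and downstream genes called in both states or at 1.5-fold were named; other uncalled members are given for completeness, and Map3k5, Daxx and Rel were chosen after their values were seen. Promoters were taken for members called at 1.5-fold; that of Ngfr is not printed because its call rests on few reads, and that of Tnf was added. Alternatives were the deposited scale, centring on the median gene, adjusted p under 0.05, a 1.5-fold minimum, a precision filter, and the exact test. Scripts used Python 3.11.15, pandas 2.3.3, numpy 2.4.6 and scipy 1.17.1 and were tested on simulated data.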

Additional observations from a re-analysis of the deposited data

Results flagged for a closer look

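Tnfsf10, Tnfrsf23 and Tnfrsf26 were noted because their KO library lay on opposite sides of the WT library in unstimulated and stimulated cells. Each was called in 1 state only, Tnfrsf23 before stimulation and Tnfsf10 and Tnfrsf26 after it. Members called in neither state, such as Tnfrsf4 and Tnfrsf22, also changed sides. The KO over WT log2 ratio after stimulation minus that before it was -1.87 for Tnfsf10, 0.24 for Tnfrsf23 and 0.17 for Tnfrsf26. With 1 library per group these differences were not tested. On the deposited ratios, not scaled to the library totals, the difference was 0.02 for Tnfrsf23 and -0.06 for Tnfrsf26, and each gene lay on the KO-higher side in both states (0.02 and 0.04 for Tnfrsf23, 0.19 and 0.13 for Tnfrsf26). That of Tnfsf10 was -2.10. The ratio of Tnfrsf26 before stimulation was -0.01, less than its counting SE of 0.025 from 0.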

How the results depend on the processing

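No paired analysis was possible because each group holds 1 library and the labels give no replicate numbers; for the same reason no library could be left out. Centring on the median gene, a filter to genes with an SE as small as 50 reads give, scaling by library totals and an exact binomial test changed no count of calls by more than 1.5 times, though under the exact test Tnfrsf18 before stimulation lost its call (adjusted p = 0.001). On the deposited ratios, which are not scaled to the library totals, the unstimulated log2 ratio of Tnfrsf23 turned to 0.02, the members' unstimulated median became 0.13, and the downstream genes called before stimulation became 14 higher and 4 lower. At an adjusted p under 0.05 the members called lower were 9 before stimulation and 5 in both states. The downstream genes called at that threshold were 8 higher before, 5 higher after and 23 lower after stimulation. The shares of all genes called at 0.05 are not given here, so these counts show no excess in the lists. With 1.5-fold also required, 1 member was called higher and 0 lower before, 2 higher and 2 lower after, and 1 higher and 0 lower in both states, and 0 downstream genes were called in any direction or state. The state differences of Tnfrsf22, Tnfrsf23 and Tnfrsf26 became -0.05, 0.02 and -0.06 on the deposited ratios. Members with few reads limit what can be seen: 30 of 40 before and 31 of 40 after stimulation had an SE as small as 50 reads give.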
